A study of Mus musculus with 9 samples.

Results

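The genes of the vacuolar proton pump (V-ATPase) and of the core autophagy machinery were examined in bulk RNA-seq of macrophages from the mouse peritoneum, phagocytes that live in the belly cavity. The set held 37 of the 55335 genes of the table and was chosen by gene symbol. The rule used no measured value, but earlier results of these data were known when the genes were chosen. Each symbol matched a single gene, and all 37 were among the 11721 genes tested. By role they were 7 V0 sector genes, 8 V1 sector genes, 2 pump accessory genes, 3 autophagy receptor genes, 5 ATG8 family genes, 7 autophagy initiation genes and 5 conjugation genes. There were 3 groups of 3 libraries, and all cells had 1 h of culture in RPMI medium with antibiotics followed by 4 h with lipopolysaccharide (LPS), the bacterial ligand of TLR4, at 1 µg/mL. The LPS group received nothing else, the LPS+EtOH group also received 5% ethanol, and the LPS+CPZ group also received 100 µM of an agent that the labels name only as CPZ. Each library was a pool of 3 RNA samples, and the labels do not say whether these came from separate animals or cultures, so p-values measure only the spread between pools. No cells free of LPS were analysed here, nor any with the solvent of CPZ alone. The series title places the experiment in a study of alcohol, M2b polarization, in which macrophages make much IL-10, and signalling through TRPV1, MAP kinases and NF-kB.

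As background, the V-ATPase is a rotary motor that pumps protons into lysosomes, phagosomes and endosomes at the cost of ATP. Its cytosolic V1 sector hydrolyses ATP and turns a rotor, and its membrane-embedded V0 sector carries the protons across. Autophagy encloses cytoplasm, damaged organelles or bacteria in a double membrane and delivers them to these acid compartments: the ULK kinase complex starts the process, a lipid kinase complex built on Vps34 marks the membrane, 2 ubiquitin-like conjugation systems attach ATG8 proteins to it, and receptors such as p62 tie cargo to the ATG8 proteins. In macrophages both systems serve the digestion of engulfed material.

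Values are FPKM, in which the fragment count of a gene is divided by its transcript length and the sequencing yield, so that levels of different genes may be compared per length. Each library summed to between 302126 and 363356 FPKM, and the number of fragments behind it is unknown. Between 11096 and 11266 genes reached 1 FPKM in the LPS libraries, 8024 to 8366 in LPS+EtOH and 10135 to 10625 in LPS+CPZ. Over all tested genes the median log2 change was -0.82 in LPS+EtOH against LPS, -0.33 in LPS+CPZ against LPS and 0.55 in LPS+CPZ against LPS+EtOH, and median-ratio scaling, which divides each library by its typical ratio to the other libraries, brought these medians to -0.01, -0.06 and 0.04. Directions were set beside those of 5 scalings in all: the deposited values, TPM (which sums to the same total in each library), globin genes left out with the rest rescaled, median-ratio and quantile scaling. A direction given below is that of the deposited values. A gene of the chosen set whose direction turned under another scaling is named as such. Genes outside the set were not all followed under other scalings in every comparison, so a direction given for them may turn without being named. Globin transcripts took 11.5 to 29.4% of FPKM in the LPS libraries and at most 0.221% in the others.

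Levels of markers of several cell types differed between the groups. Calls of single markers, at an adjusted p under 0.05 (limma), stand beside the shares of all tested genes. As deposited 19% of all tested genes were higher and 64.6% lower with ethanol, and 20.7 and 48.4% with CPZ. After median-ratio scaling the shares were 39.9 and 40.1% with ethanol, and 28.6 and 32.5% with CPZ. No difference between the markers and these shares was tested. Of 11 macrophage markers, 9 reached a group mean of 1 FPKM with LPS alone, 6 did so with ethanol and 8 with CPZ, with summed levels of 1639 to 2125, 2758 to 3061 and 1116 to 1308 FPKM. Of the 9 tested, 3 were higher and 5 lower with ethanol (median log2 change -0.66), and 2 were higher and 6 lower with CPZ (-0.79); after median-ratio scaling these counts were 5 and 3, and 3 and 5. Cd14 made up most of the ethanol sum, with means of 907 ± 148, 2177 ± 221 and 406 ± 16.95 FPKM, and Cd68 had 55.5 ± 11.6, 363 ± 34.2 and 405 ± 67.2. Means of Lyz2 were 733, 226 and 217 FPKM in LPS, LPS+EtOH and LPS+CPZ, and those of Adgre1 were 141, 88.97 and 88.5. Timd4 had 7.82, 0.162 and 0.977, Fcgr1 6.29, 0.116 and 1.41, and Icam2 4.30, 0.355 and 2.12. Itgam had 49.8, 78.2 and 80.2, and Csf1r 24.9, 19.4 and 36.9. Mertk and Gata6 were under 1 FPKM in every group, Timd4 was under 1 in LPS+EtOH and LPS+CPZ, and Fcgr1 and Icam2 were under 1 in LPS+EtOH. Of 11 neutrophil markers, 9 reached 1 FPKM in each group, and their sum was 3852 to 5400 FPKM in LPS, 43659 to 48237 in LPS+EtOH and 6375 to 6875 in LPS+CPZ, with the primary granule genes Mpo and Elane under 1 throughout. S100a8 (means 995, 9141 and 2752 FPKM) and S100a9 (3369, 33420 and 3208) made up most of each sum. By gene all 9 tested were higher with ethanol (median log2 change 3.17). With CPZ 3 were higher and 3 lower (0.97), or 3 and 2 after median-ratio scaling. All 10 B cell markers reached 1 FPKM with LPS alone, 7 with ethanol and 8 with CPZ, with sums of 1484 to 2131, 145 to 199.6 and 1205 to 1423 FPKM. Ighm made up most of each sum, with means of 1249 ± 218, 119.5 ± 18.2 and 1160.3 ± 89.2 FPKM, and by gene all 10 were lower with ethanol (median log2 change -3.46) and 9 of 10 with CPZ (-1.75), Ighm being the exception (-0.093 ± 0.17, adjusted p = 0.644). For T and NK cells the counts were 9, 0 and 5 of 11 and the sums 56.8 to 74.8, 1.07 to 2.42 and 12.5 to 23.3 FPKM, and for dendritic cells the counts were 4, 2 and 3 of 7 and the sums 133 to 198, 28.7 to 30.4 and 94.3 to 138 FPKM. Of the 5 dendritic cell markers tested, 0 were higher and 3 lower with ethanol, and 2 were higher and 3 lower with CPZ. After median-ratio scaling these counts were 2 and 3, and 2 and 2. All 9 tested T and NK cell markers were lower with ethanol and with CPZ (9 and 8 after median-ratio scaling). Mast cell markers reached 1 FPKM in 5, 6 and 4 of 7 cases, with sums of 50.1 to 91.2, 23.2 to 61.1 and 13.9 to 36.3 FPKM. Of the 6 mast cell markers tested, 0 were higher and 3 lower with ethanol, and 0 and 4 with CPZ. Median-ratio scaling gave 2 and 0, and 0 and 4. Red cell markers reached 1 FPKM in 7, 5 and 4 of 7 cases, with sums of 34791 to 107461, 608 to 747 and 153 to 349 FPKM. All 6 red cell markers tested were lower with ethanol and with CPZ, also after median-ratio scaling. In every library of a group Elane was listed at 0 in LPS, Slc4a1 in LPS+EtOH and LPS+CPZ, and Ms4a2 and Klrb1c in LPS+EtOH. The part of these shifts in the changes described below was not tested, and in bulk RNA fewer cells of a type cannot be told apart from less RNA per cell.

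Most of the 37 genes were higher in each group that received a further agent than in LPS alone. With ethanol 13 of the 17 pump genes rose, against 9 of the 20 autophagy genes, and with CPZ 15 and 12 rose. In LPS+EtOH against LPS, 22 of the 37 genes rose and 8 fell at an adjusted p under 0.05 (limma, Benjamini-Hochberg over all tested genes), where 19% of all tested genes rose and 64.6% fell (83.6% in either direction). The libraries of the 2 groups did not overlap for 31 of the 37 genes, against 84.8% of all tested genes (19.5% higher and 65.3% lower). In LPS+CPZ against LPS, 27 rose and 6 fell, where 20.7% of all tested genes rose and 48.4% fell (69.2% in either direction). Here 34 of the 37 genes did not overlap, against 72.9% of all tested genes (22.3% higher and 50.7% lower). Over the 37 genes the median log2 change was 0.93 in the first comparison and 1.04 in the second. After median-ratio scaling the counts were 29 higher and 2 lower with ethanol, against 39.9 and 40.1% of all genes, and 29 higher and 3 lower with CPZ, against 28.6 and 32.5%. These comparisons share the LPS libraries, so they are given side by side and their likeness is not counted as a result.

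The 17 genes of the pump and its accessory proteins summed to 414, 389 and 368 FPKM with LPS alone, to 1164, 1178 and 1129 with ethanol, and to 994, 987 and 1086 with CPZ. Every library with a further agent was thus above every LPS library. Of the 17 genes, 13 rose and 2 fell with ethanol, with a median log2 change of 1.30, and 15 rose and 2 fell with CPZ, with a median of 1.46. After median-ratio scaling 15 were higher and 0 lower with ethanol (median 2.43), and 15 were higher and 1 lower with CPZ (1.70).

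**Figure D1:**
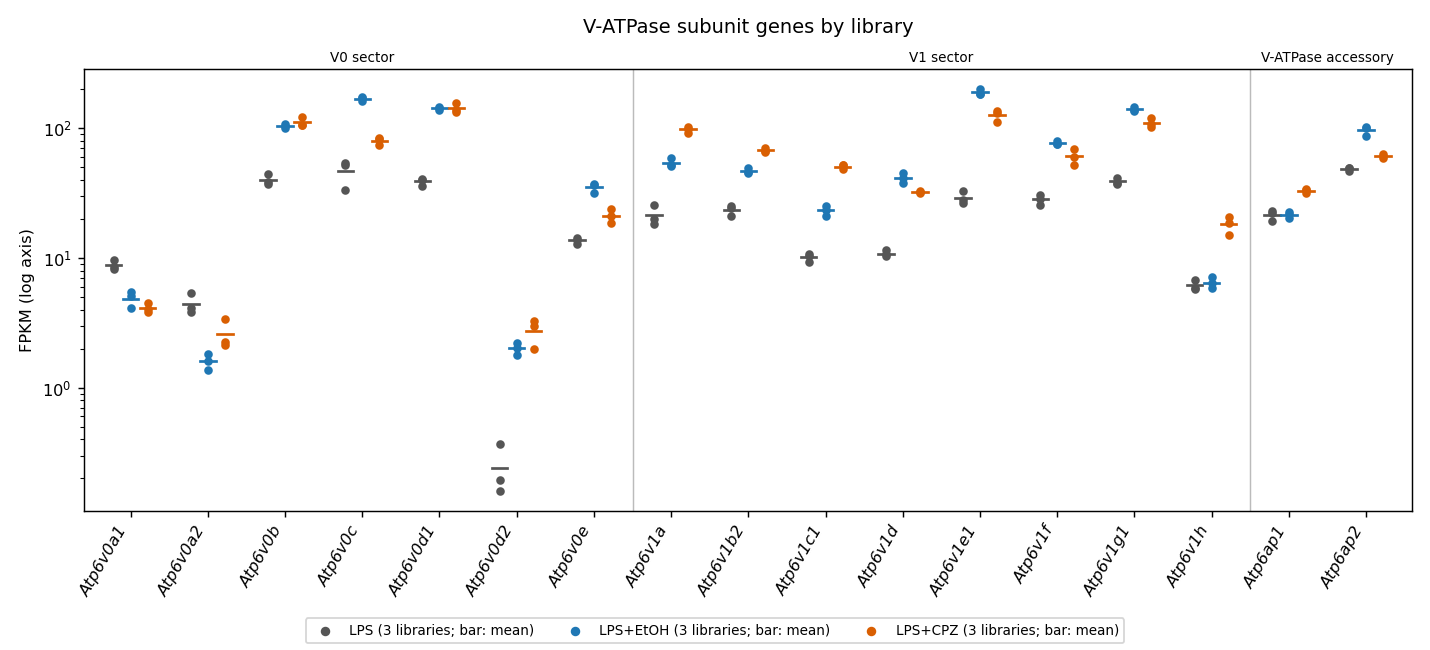
Levels of the 17 pump genes in FPKM (log axis) in each of the 9 libraries, grouped by V0 sector, V1 sector and accessory proteins; points are libraries and bars are group means. The LPS libraries lie lowest for most V0 and V1 genes, whereas Atp6v0a1 and Atp6v0a2 are highest in LPS (for Atp6v0a1 with ethanol, a direction that turned under median-ratio and quantile scaling).

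The V0 sector, which holds the proton channel, rose in 5 of its 7 genes in each comparison against LPS, with Atp6v0a1 and Atp6v0a2 as the 2 that fell (0 lower with ethanol and 1 with CPZ after median-ratio scaling). Atp6v0d1, which encodes the subunit that couples the rotor to the membrane ring, stood at 40.5, 36.2 and 40.2 FPKM in LPS, 139, 146 and 143 with ethanol and 133, 138 and 156 with CPZ. All libraries with ethanol or CPZ lay above all LPS libraries, and the 2 treated groups overlapped. The log2 change was 1.85 ± 0.11, adjusted p = 1.52e-07 with ethanol and 1.84 ± 0.11, adjusted p = 4.33e-07 with CPZ (estimate ± SE, here and below). Its paralogue Atp6v0d2, best known from osteoclasts and macrophages, was listed at 0.193, 0.368 and 0.161 FPKM in LPS, 2.22, 2.03 and 1.77 with ethanol and 3.26, 2.997 and 2.002 with CPZ. It was thus low everywhere, and lowest in LPS without overlap. Its log2 change was 1.28 ± 0.14, adjusted p = 9.21e-06 with ethanol and 1.58 ± 0.14, adjusted p = 5.71e-06 with CPZ on the log2(FPKM + 1) scale, while the ratio of the mean levels was 8.34 and 11.4.

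The proteolipid ring gene Atp6v0c had means of 46.5 ± 11.6, 169 ± 5.63 and 79.97 ± 5.35 FPKM in LPS, LPS+EtOH and LPS+CPZ (mean ± SD, n = 3 libraries, in this order below). The other ring gene, Atp6v0b, stood at 39.96 ± 3.84, 104 ± 4.08 and 112 ± 9.27, and the small V0 gene Atp6v0e at 13.7 ± 0.797, 35.1 ± 2.79 and 21.2 ± 2.61. All 3 genes rose with either agent, by log2 changes of 1.30 to 1.87 with ethanol and 0.59 to 1.46 with CPZ. The call for Atp6v0e with CPZ was lost when globin genes were left out (log2 change 0.24, adjusted p = 0.145).

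The large V0 subunit a, which lines the proton path and directs the pump to its membrane, comes in isoforms. Atp6v0a1 stood at 8.48, 8.23 and 9.73 FPKM in LPS, 4.10, 5.05 and 5.45 with ethanol and 4.01, 4.48 and 3.83 with CPZ, and Atp6v0a2 at 3.84, 5.38 and 4.12, 1.62, 1.38 and 1.82 and 2.23, 3.36 and 2.13. For either gene the LPS libraries were the highest, without overlap. The log2 change of Atp6v0a1 was -0.75 ± 0.12, adjusted p = 0.000202 with ethanol, a direction that turned under median-ratio (0.29) and quantile scaling (0.082), and -0.94 ± 0.12, adjusted p = 7.56e-05 with CPZ, which held under all 5 scalings. Atp6v0a2 changed by -1.06 ± 0.16, adjusted p = 9.21e-05 with ethanol and by -0.61 ± 0.16, adjusted p = 0.00571 with CPZ, and both calls were lost under median-ratio scaling (-0.20 and -0.32) and quantile scaling (-0.068 and -0.24). The third isoform, a3, is encoded by Tcirg1, which is not among the 37 genes and is known from the lysosomes of osteoclasts and macrophages. Tcirg1 stood at 27.2, 22.2 and 16.04 FPKM in LPS, 44.4, 41.4 and 43.2 with ethanol and 47.6, 40.1 and 43.3 with CPZ, lowest in LPS without overlap. It rose by 0.98 ± 0.17, adjusted p = 0.000247 with ethanol and 0.997 ± 0.17, adjusted p = 0.000379 with CPZ. Atp6v0a4 was at or near 0 in all libraries.

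In the V1 sector, 7 of 8 genes rose with ethanol and all 8 with CPZ, with median log2 changes of 1.36 and 1.497. Atp6v1e1, a subunit of the outer stalks that hold the motor still, stood at 32.6, 26.5 and 28.01 FPKM in LPS, 185, 199.6 and 185 with ethanol and 131, 112 and 136 with CPZ. The 3 groups did not overlap, and ethanol libraries were highest. The mean was 6.54 times the LPS mean with ethanol and 4.35 times with CPZ, or 2.67 ± 0.13, adjusted p = 5.21e-08 and 2.08 ± 0.13, adjusted p = 4.12e-07 in log2 terms. Atp6v1e1 overlaps Slc25a18, which had means of 0.611, 2.97 and 3.44 FPKM. Atp6v1a, the catalytic subunit that hydrolyses ATP, stood at 25.7, 18.4 and 19.97 FPKM in LPS, 59.2, 52.2 and 51.1 with ethanol and 102, 92.5 and 99.6 with CPZ. Here too the groups did not overlap, but CPZ libraries were highest, with log2 changes of 1.31 ± 0.14, adjusted p = 5.32e-06 for ethanol and 2.16 ± 0.14, adjusted p = 5.8e-07 for CPZ. Atp6v1h, a regulatory subunit that silences detached V1, stood at 5.89, 5.80 and 6.74 FPKM in LPS, 5.88, 7.11 and 6.40 with ethanol and 15.04, 18.8 and 20.8 with CPZ. The LPS and ethanol libraries overlapped, and all CPZ libraries lay above them. Its log2 change was 0.062 ± 0.14, adjusted p = 0.677 with ethanol, a sign that turned as TPM (-0.037) and without globin genes (-0.31, adjusted p = 0.0415), and 1.42 ± 0.14, adjusted p = 8.36e-06 with CPZ. Under median-ratio scaling the ethanol change of Atp6v1h was 1.09 with an adjusted p of 3.5e-05 (limma).

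Among the other V1 genes, Atp6v1c1, whose product bridges the stalks and leaves the pump when it disassembles, rose by 1.12 with ethanol and 2.21 with CPZ from 10.2 ± 0.765 FPKM in LPS. Atp6v1b2, the partner of the catalytic subunit in the hexamer, had group means of 23.5 ± 2.22, 46.8 ± 2.31 and 67.9 ± 2.34 FPKM. The rotor genes Atp6v1d and Atp6v1f and the outer stalk gene Atp6v1g1 were highest with ethanol, at means of 41.6 ± 3.61, 77.1 ± 2.93 and 141 ± 5.38 FPKM against 10.8 ± 0.608, 28.3 ± 2.34 and 38.9 ± 2.42 in LPS. The tissue-restricted isoform genes Atp6v1b1, Atp6v1c2, Atp6v1e2, Atp6v1g2 and Atp6v1g3 and the V0 gene Atp6v0e2 had group means under 1 FPKM in all groups and were not tested.

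The accessory gene Atp6ap2, which encodes the prorenin receptor, stood at 49.6, 49.2 and 46.8 FPKM in LPS, 99.9, 102 and 86.9 with ethanol and 59.4, 60.8 and 62.8 with CPZ. The groups did not overlap, and ethanol libraries were highest. It rose by 0.97 ± 0.11, adjusted p = 8.43e-06 with ethanol. With CPZ its log2 change was 0.32 ± 0.11, adjusted p = 0.0202, a value that turned to -0.044 without globin genes. This call was also lost as TPM (adjusted p = 0.138) and without LPS 3, LPS+CPZ 2 or LPS+CPZ 3 (adjusted p = 0.0527 to 0.0609). Atp6ap1, an assembly and luminal subunit, stood at 22.8, 22.3 and 19.1 FPKM in LPS, 22.7, 20.3 and 21.7 with ethanol and 34.3, 31.4 and 33.4 with CPZ. Only the CPZ libraries stood apart among these 3 groups, and the log2 changes were 0.011 ± 0.11, adjusted p = 0.926 for ethanol and 0.61 ± 0.11, adjusted p = 0.000617 for CPZ. The ethanol value of Atp6ap1 turned as TPM (-0.10), without globin genes (-0.39) and without LPS 3 (-0.065) or LPS+EtOH 1 (-0.025), and its CPZ call was lost without globin genes (0.25, adjusted p = 0.0914).

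Promoter windows for 26 of the 37 genes were in a RefSeq table (build GRCm38.p6), each from 250 bases before to 50 bases after the transcript start. They were searched on both strands for the E-box core CACGTG, bound by basic helix-loop-helix factors, for its extension TCACGTGA, which contains the core and is the form known for the lysosomal regulators TFEB and TFE3, for the antioxidant response core TGACNNNGC and for the heat shock pair GAANNTTC. The extension was present in 4 of 26 genes, Atp6v0d1, Atp6v0e, Atp6v1a and Atg3, and in 1.12% of all genes with a window (0.974% of all 32851 windows). The core was present in these 4 and in Atp6v0b, Atg5 and Atg7, against 8.09% of genes. TGACNNNGC was present in Atp6v0a1, Atp6v1a, Map1lc3b and Atg13, against 13.99% of genes, and GAANNTTC in Optn alone, against 9.04%. All 4 windows with the extension are shown, whatever the expression of the genes, and capitals mark TCACGTGA. It starts 4 bases before the transcript start in Atp6v0d1 (chr8:105566015-105566314, minus strand) and at base 3 of the transcript in Atp6v0e (chr17:26676146-26676445, plus strand). It starts 132 bases before the transcript start in Atp6v1a (chr16:44139210-44139509, minus strand) and 72 bases before it in Atg3 (chr16:45158579-45158878, plus strand).
Atp6v0d1: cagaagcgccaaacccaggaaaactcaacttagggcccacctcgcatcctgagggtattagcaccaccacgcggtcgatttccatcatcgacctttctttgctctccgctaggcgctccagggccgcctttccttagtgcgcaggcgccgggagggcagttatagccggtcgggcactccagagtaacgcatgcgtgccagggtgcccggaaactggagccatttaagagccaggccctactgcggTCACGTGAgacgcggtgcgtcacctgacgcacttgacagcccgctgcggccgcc
Atp6v0e: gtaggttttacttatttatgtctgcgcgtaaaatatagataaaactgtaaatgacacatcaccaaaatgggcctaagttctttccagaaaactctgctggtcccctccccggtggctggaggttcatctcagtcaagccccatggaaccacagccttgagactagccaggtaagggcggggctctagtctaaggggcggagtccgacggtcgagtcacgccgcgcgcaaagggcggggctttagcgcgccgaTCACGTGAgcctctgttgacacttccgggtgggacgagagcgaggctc
Atp6v1a: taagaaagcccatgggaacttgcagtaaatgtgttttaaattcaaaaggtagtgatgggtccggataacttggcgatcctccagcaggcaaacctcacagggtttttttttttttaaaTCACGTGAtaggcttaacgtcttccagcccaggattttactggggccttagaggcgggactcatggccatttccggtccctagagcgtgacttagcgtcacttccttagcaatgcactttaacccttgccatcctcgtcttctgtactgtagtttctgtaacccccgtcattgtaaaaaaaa
Atg3: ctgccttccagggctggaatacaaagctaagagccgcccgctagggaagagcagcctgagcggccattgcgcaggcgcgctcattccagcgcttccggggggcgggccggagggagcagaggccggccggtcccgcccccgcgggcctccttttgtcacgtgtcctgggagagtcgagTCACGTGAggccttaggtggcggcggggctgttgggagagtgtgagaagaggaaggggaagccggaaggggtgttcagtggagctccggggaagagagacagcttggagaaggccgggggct
A match of letters is a description and does not show that a factor bound there. Windows were missing for Atp6v0a2, Atp6v0d2, Atp6v1b2, Atp6v1c1, Atp6v1g1, Atp6v1h, Map1lc3a, Becn1, Pik3c3, Atg12 and Atg16l1.

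Of the 20 autophagy genes, 9 rose and 6 fell with ethanol (median log2 change 0.23), and 12 rose and 4 fell with CPZ (0.78). After median-ratio scaling 14 were higher and 2 lower in each of these comparisons, with medians of 1.27 and 1.05. Sqstm1 alone held most of their summed level, at 1227 of 1543 FPKM in LPS 1.

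**Figure D2:**
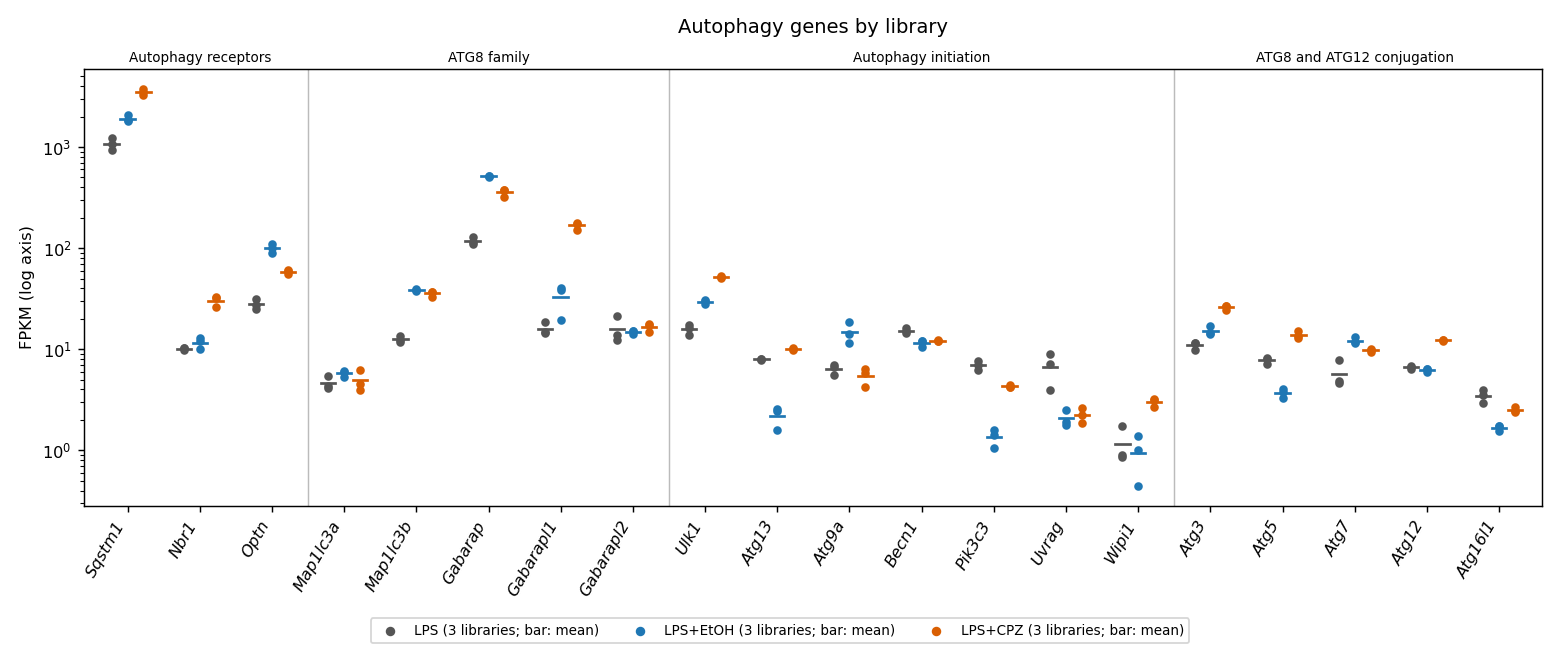
Levels of the 20 autophagy genes in FPKM (log axis) in each of the 9 libraries, by role; points are libraries and bars are group means. Sqstm1, Optn, Map1lc3b, Gabarap and Gabarapl1 are lowest in LPS, while Atg13, Pik3c3 and Atg5 are lowest in LPS+EtOH (for Atg5 against LPS, a direction that turned under median-ratio scaling).

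All 3 receptor genes rose with CPZ and 2 of 3 with ethanol (all 3 after median-ratio scaling). Sqstm1 encodes p62, which binds ubiquitinated cargo, and was the most abundant of the 37 genes in every library. It stood at 1227, 1072 and 934 FPKM in LPS, 1808, 2079 and 1852 with ethanol and 3264, 3534 and 3737 with CPZ. The groups did not overlap and rose in that order, with log2 changes of 0.83 ± 0.16, adjusted p = 0.000474 for ethanol and 1.71 ± 0.16, adjusted p = 6.16e-06 for CPZ. Optn encodes optineurin, a receptor for bacteria and damaged mitochondria, and stood at 31.6, 27.3 and 25.1 FPKM in LPS, 99.3, 109 and 89.9 with ethanol and 59.5, 60.8 and 54.8 with CPZ. Again no groups overlapped, but ethanol libraries were highest, with log2 changes of 1.80 ± 0.13, adjusted p = 3.23e-07 and 1.04 ± 0.13, adjusted p = 4.08e-05. Nbr1, a receptor related to p62, stood at 10.2, 9.82 and 10.2 FPKM in LPS, 12.9, 9.99 and 11.98 with ethanol and 32.5, 31.8 and 26.4 with CPZ. The ethanol libraries overlapped with LPS, and the CPZ libraries lay above all others. Its log2 change was 0.18 ± 0.13, adjusted p = 0.192 with ethanol and 1.49 ± 0.13, adjusted p = 3.75e-06 with CPZ; the first turned to -0.20 without globin genes and was 1.28 under median-ratio scaling (adjusted p = 5.08e-06).

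The ATG8 family proteins are the ubiquitin-like tags of the autophagosome membrane, and 3 of the 5 genes rose in each comparison against LPS (5 with ethanol and 4 with CPZ after median-ratio scaling). Gabarapl1 showed the largest change of the 37 genes with CPZ on the log2(FPKM + 1) scale. It stood at 18.7, 14.7 and 14.4 FPKM in LPS, 38.4, 40.3 and 19.5 with ethanol and 173, 152 and 177 with CPZ. All CPZ libraries were far above the rest, and the third ethanol library lay just above the LPS range while the other two were higher. The mean with CPZ was 10.5 times the LPS mean, a log2 change of 3.32 ± 0.24, adjusted p = 1.32e-06. With ethanol the change was 0.93 ± 0.24, adjusted p = 0.00377, and this call was lost without globin genes (0.53, adjusted p = 0.059). Gabarapl1 overlaps 1700101I11Rik on the opposite strand, which had means of 0.112, 0.822 and 1.87 FPKM, in the same order as Gabarapl1. Gabarap, the most abundant ATG8 gene, stood at 130.02, 115 and 109.7 FPKM in LPS, 505, 521 and 514 with ethanol and 377, 322 and 374 with CPZ. The groups did not overlap and ethanol was highest, with log2 changes of 2.11 ± 0.12, adjusted p = 1.27e-07 and 1.59 ± 0.12, adjusted p = 2.34e-06.

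Map1lc3b, which encodes the LC3B protein used as the standard autophagosome marker, stood at 11.7, 12.2 and 13.5 FPKM in LPS, 38.8, 37.8 and 39.2 with ethanol and 36.5, 33.2 and 37.2 with CPZ. All treated libraries were above all LPS libraries, with log2 changes of 1.56 ± 0.10, adjusted p = 2.51e-07 and 1.44 ± 0.10, adjusted p = 1.32e-06. Its paralogue Map1lc3a stood at 5.49, 4.10 and 4.35 FPKM in LPS, 5.98, 5.37 and 6.03 with ethanol and 3.98, 6.24 and 4.57 with CPZ, and Gabarapl2 at 13.8, 12.4 and 21.3, 14.99, 14.2 and 15.3 and 14.8, 17.2 and 17.8. For these 2 genes the groups overlapped and no change was called in any comparison, with log2 changes from -0.21 to 0.27. Scaling changed this: under median-ratio scaling Map1lc3a changed by 1.27 and Gabarapl2 by 1.06 with ethanol (adjusted p = 1.53e-05 and 0.000163), while without globin genes the values were -0.082 and -0.45.

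Of the 7 initiation genes, 2 rose and 4 fell with ethanol, and 2 rose and 3 fell with CPZ; after median-ratio scaling 3 were higher and 2 lower in each comparison. Ulk1 encodes the kinase that starts autophagy when mTORC1 is inactive. It stood at 16.3, 13.7 and 17.2 FPKM in LPS, 30.6, 28.1 and 29.8 with ethanol and 51.3, 53.5 and 50.6 with CPZ, without overlap and highest with CPZ. Its log2 changes were 0.87 ± 0.11, adjusted p = 2.64e-05 and 1.66 ± 0.11, adjusted p = 8.7e-07. Atg13, Pik3c3 and Atg9a are also given by library because their values stood apart, a choice made after these were seen. Atg13, the ULK complex subunit through which nutrient signals act, stood at 8.03, 7.77 and 7.96 FPKM in LPS, 2.43, 1.60 and 2.55 with ethanol and 10.2, 9.90 and 9.97 with CPZ. Ethanol libraries were lowest and CPZ libraries highest, without overlap, and the log2 change with ethanol (-1.50 ± 0.13, adjusted p = 1.28e-06) held its call under all 5 scalings. The change with CPZ was 0.30 ± 0.13, adjusted p = 0.0552, and it turned to -0.032 without globin genes.

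Pik3c3, Becn1 and Uvrag, the 3 of the 37 genes whose products belong to the lipid kinase complex, were called lower in each comparison against LPS, in part depending on scaling. Genes of the complex outside this set are given with the wider lists. Pik3c3, which encodes the Vps34 kinase, stood at 6.25, 7.01 and 7.70 FPKM in LPS, 1.58, 1.06 and 1.42 with ethanol and 4.27, 4.21 and 4.40 with CPZ. The LPS mean was 5.17 times the ethanol mean and 1.63 times the CPZ mean, with log2 changes of -1.77 ± 0.12, adjusted p = 2.9e-07 and -0.59 ± 0.12, adjusted p = 0.00139. The second call was lost under quantile scaling (-0.25, adjusted p = 0.0582). Becn1 encodes Beclin 1, the scaffold of this complex, and stood at 14.3, 15.3 and 16.1 FPKM in LPS, 11.9, 10.6 and 12.2 with ethanol and 12.1, 12.1 and 12.3 with CPZ. All LPS libraries were above the others, but by little. Its log2 change was -0.37 ± 0.10, adjusted p = 0.00615 with ethanol, which turned under median-ratio (0.74, adjusted p = 3.68e-05) and quantile scaling (0.19), and -0.30 ± 0.10, adjusted p = 0.0244 with CPZ, which turned under median-ratio scaling (0.038) and lost its call under quantile scaling (-0.057). The CPZ call for Becn1 was also lost without LPS 2, LPS 3, LPS+CPZ 1, LPS+CPZ 2 or LPS+CPZ 3 (adjusted p = 0.0511 to 0.085). Uvrag, a subunit of the complex in late steps, stood at 7.12, 3.95 and 8.95 FPKM in LPS, 1.79, 2.52 and 1.92 with ethanol and 2.25, 2.62 and 1.85 with CPZ. The LPS libraries were highest and spread widely, and the log2 changes were -1.27 ± 0.23, adjusted p = 0.000329 and -1.19 ± 0.23, adjusted p = 0.000848. Only the CPZ value of Uvrag held its call under all 5 scalings; with ethanol it was -0.35 (adjusted p = 0.189) under median-ratio scaling and -0.33 (adjusted p = 0.254) under quantile scaling.

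Atg9a, the lipid scramblase of the seed vesicles, stood at 6.60, 5.51 and 7.05 FPKM in LPS, 18.4, 11.6 and 14.1 with ethanol and 6.43, 5.78 and 4.23 with CPZ. Only ethanol libraries were apart, with a log2 change of 1.07 ± 0.18, adjusted p = 0.000245; the value with CPZ was -0.20 ± 0.18, adjusted p = 0.354 and turned to 0.11 under median-ratio and 0.15 under quantile scaling. Atg9a overlaps Ankzf1 on the opposite strand, and the strand setting of the authors' counting is not given in the sources used here; Ankzf1 had means of 3.99, 3.03 and 6.91 FPKM, in another order than Atg9a. Wipi1, a reader of the lipid mark, had means of 1.16 ± 0.494, 0.939 ± 0.468 and 3.02 ± 0.286 FPKM. It rose with CPZ (0.92 ± 0.20, adjusted p = 0.00191), and its ethanol value of -0.16 was not called and turned under median-ratio (0.42) and quantile scaling (0.63, adjusted p = 0.0192).

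Conjugation genes attach ATG8 to lipid and ATG12 to ATG5. With CPZ 4 of 5 rose and 1 fell, and with ethanol 2 rose and 2 fell; after median-ratio scaling 3 were higher and 0 lower with ethanol, and 4 and 0 with CPZ. Atg7, the activating enzyme shared by both systems, stood at 7.81, 4.82 and 4.61 FPKM in LPS, 11.8, 11.4 and 13.1 with ethanol and 9.95, 9.89 and 9.36 with CPZ. All LPS libraries were lowest, and the log2 changes were 0.98 ± 0.16, adjusted p = 0.000194 and 0.70 ± 0.16, adjusted p = 0.00308, the second lost without globin genes (0.38, adjusted p = 0.0699). Atg3, the enzyme that passes ATG8 on to lipid, stood at 9.76, 11.5 and 11.6 FPKM in LPS, 14.2, 14.5 and 16.8 with ethanol and 26.6, 24.6 and 27.01 with CPZ. The groups did not overlap and CPZ was highest, with log2 changes of 0.44 ± 0.11, adjusted p = 0.00442 and 1.18 ± 0.11, adjusted p = 9.35e-06, the first lost without globin genes (0.046, adjusted p = 0.733). Atg5, the acceptor of ATG12, stood at 7.14, 7.92 and 8.23 FPKM in LPS, 3.81, 3.27 and 4.06 with ethanol and 13.5, 12.95 and 15.3 with CPZ. Ethanol libraries were lowest and CPZ libraries highest, without overlap. The log2 change was -0.90 ± 0.12, adjusted p = 2.87e-05 with ethanol, which turned to 0.11 under median-ratio scaling and was -0.017 under quantile scaling, and 0.77 ± 0.12, adjusted p = 0.000188 with CPZ.

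The remaining conjugation genes were Atg12 and Atg16l1. Atg12 had means of 6.64 ± 0.204, 6.23 ± 0.224 and 12.2 ± 0.240 FPKM and rose with CPZ (0.79 ± 0.10, adjusted p = 4.02e-05). Its ethanol value of -0.080 was not called, and turned under median-ratio (0.95) and quantile scaling (0.75). Atg16l1, the partner that places the complex on the membrane, had means of 3.48 ± 0.530, 1.67 ± 0.0992 and 2.51 ± 0.138 FPKM and log2 changes of -0.74 ± 0.11, adjusted p = 0.000113 with ethanol and -0.35 ± 0.11, adjusted p = 0.0202 with CPZ. The first turned under median-ratio (0.10) and quantile scaling (0.24). The second turned under quantile scaling (0.022), lost its call under median-ratio scaling (-0.071) and lost it without LPS 2, LPS 3, LPS+CPZ 1 or LPS+CPZ 3 (adjusted p = 0.0546 to 0.0829).

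CPZ and ethanol were compared directly as well, which tests the difference between their effects on LPS-treated cells. In LPS+CPZ against LPS+EtOH, 17 of the 37 genes were higher and 10 lower, where 61.4% of all tested genes were higher and 15.2% lower (76.6% in either direction). The 2 groups did not overlap for 29 of the 37 genes, against 79% of all tested genes (62.9% higher and 16% lower). Among the autophagy genes 11 were higher with CPZ and 3 lower, and among the pump genes 6 were higher and 7 lower. After median-ratio scaling 6 of the autophagy genes were higher and 8 lower, 1 of the pump genes was higher and 10 lower, and the split over the 37 genes was 7 higher and 18 lower, against 33.9 and 33% of all genes. Under all 5 scalings Atp6v1h, Nbr1, Gabarapl1, Atg13, Pik3c3 and Atg5 were called higher with CPZ, Atp6v0c, Atp6v0e, Atp6ap2, Optn and Atg9a were called lower, and Atp6v0d2 and Uvrag were not called.

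Of the genes higher with CPZ under every scaling, Gabarapl1 differed by 2.38 ± 0.24, adjusted p = 1.04e-05, Atg13 by 1.80 ± 0.13, adjusted p = 1.42e-06 and Atg5 by 1.66 ± 0.12, adjusted p = 1.26e-06. Atp6v1h differed by 1.36 ± 0.14, adjusted p = 1.02e-05, Nbr1 by 1.31 ± 0.13, adjusted p = 8.34e-06 and Pik3c3 by 1.18 ± 0.12, adjusted p = 1.24e-05. No library of these 6 genes overlapped between the 2 groups. Of the genes lower with CPZ, Atg9a differed by -1.27 ± 0.18, adjusted p = 0.000112 and Atp6v0c by -1.07 ± 0.17, adjusted p = 0.000238. Optn differed by -0.76 ± 0.13, adjusted p = 0.000282, Atp6v0e by -0.71 ± 0.12, adjusted p = 0.000368 and Atp6ap2 by -0.65 ± 0.11, adjusted p = 0.000293. These also showed no overlap.

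V1 genes split in this comparison. Atp6v1a, Atp6v1b2 and Atp6v1c1, of the hexamer and its bridge, were higher with CPZ than with ethanol by log2 0.85, 0.53 and 1.09, next to Atp6v1h. The rotor and outer stalk genes Atp6v1d, Atp6v1e1, Atp6v1f and Atp6v1g1 were lower, by log2 changes of -0.35, -0.59, -0.35 and -0.36. Under median-ratio scaling only Atp6v1h of the first 4 was called, Atp6v1a stood at 0.028, Atp6v1c1 at 0.29, and Atp6v1b2 turned to -0.29. The call for Atp6v1f was lost without LPS+EtOH 1, LPS+EtOH 2, LPS+EtOH 3, LPS+CPZ 1 or LPS+CPZ 2 (adjusted p = 0.0501 to 0.108), and as TPM the calls for Atp6v1d, Atp6v1f and Atp6v1g1 were lost (adjusted p = 0.0611, 0.0826 and 0.0699). Under quantile scaling the calls for Atp6v1e1 and Atp6v1g1 were lost (adjusted p = 0.061 and 0.215).

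Further values in this comparison depended on scaling or on single libraries. Sqstm1 was higher with CPZ by 0.88 ± 0.16, adjusted p = 0.000473 and Ulk1 by 0.79 ± 0.11, adjusted p = 9.54e-05, but under median-ratio scaling Sqstm1 stood at 0.046 and Ulk1 turned to -0.017. Atg3 at 0.74, Atp6ap1 at 0.60 and Atg16l1 at 0.40 turned under the same scaling, to -0.046, -0.21 and -0.17. Atp6v0a2 was higher by 0.44 ± 0.16, adjusted p = 0.026, a value that turned to -0.12 under median-ratio scaling and lost its call without LPS+EtOH 1 (adjusted p = 0.054), LPS+EtOH 2 (0.0847) or LPS+CPZ 2, where it was 0.29 (adjusted p = 0.11). Without LPS+CPZ 3 Atp6v0d2 was called higher (0.46, adjusted p = 0.00897), and without LPS+CPZ 2 Map1lc3a was called lower (-0.37, adjusted p = 0.0462).

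**Figure D3:**
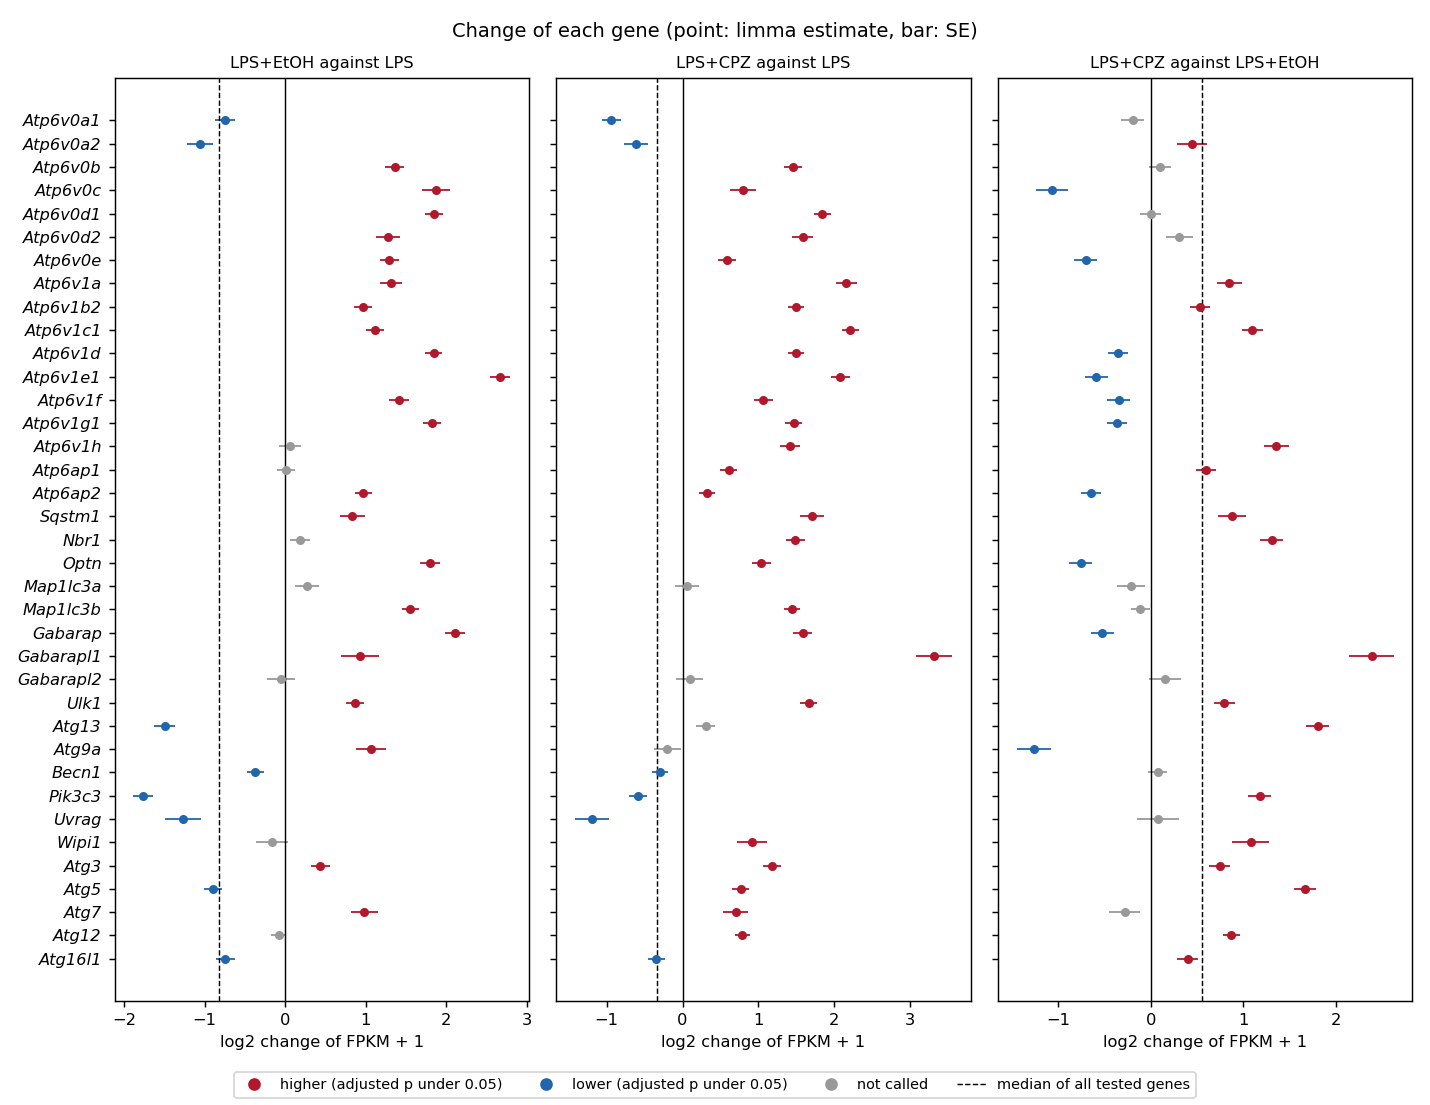
Log2 change of FPKM + 1 of each of the 37 genes in the 3 comparisons; points are limma estimates, bars are SE, colours give the call and the dashed line is the median of all tested genes. Most points lie right of the dashed line in the comparisons against LPS, where that median is -0.82 and -0.33; genes near 0 can change direction under another scaling.

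Ratios between paralogues within a library do not change when all its values are divided by the same factor. Quantile scaling is not of that kind and can change them. The ratios were taken from the deposited values. They were compared between groups by exact two-sided permutation tests, where 3 libraries against 3 cannot go below p = 0.1, so none could pass the threshold, and the adjusted value of the smallest p was 0.12 over 18 tests of 6 pairs. Gabarapl1 made up 12.6, 11.3 and 11.6% of the sum of Gabarapl1 and Gabarap in LPS, 7.06, 7.19 and 3.65% with ethanol, and 31.5, 32.1 and 32.1% with CPZ. The 3 groups did not overlap (exact p = 0.1 in each comparison). Atp6v0a1 made up 23.8, 27.1 and 37.8% of the sum of Atp6v0a1 and Tcirg1 in LPS, 8.46, 10.9 and 11.2% with ethanol, and 7.78, 10.04 and 8.13% with CPZ. All LPS libraries were above the rest, and the treated groups overlapped (exact p = 0.2 between them). For Atp6v0a2 to Tcirg1 the mean log2 ratios were -2.28, -4.75 and -4.11, with every LPS library highest.

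For Map1lc3a to Map1lc3b the mean log2 ratios were -1.43 with LPS alone, -2.74 with ethanol and -2.88 with CPZ, with every LPS library highest. Gabarapl2 to Gabarap had -2.94, -5.11 and -4.43, without overlap between any groups. Atp6v0d2 was 0.476, 1.007 and 0.398% of the sum of the d subunit genes in LPS, 1.57, 1.37 and 1.23% with ethanol and 2.39, 2.12 and 1.26% with CPZ. Its share was therefore lowest in LPS without overlap, but adding 1 FPKM to both genes turned the differences from LPS to -0.57 and -0.26. Atp6v0d2 was listed under 1 FPKM in every LPS library.

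**Figure D4:**
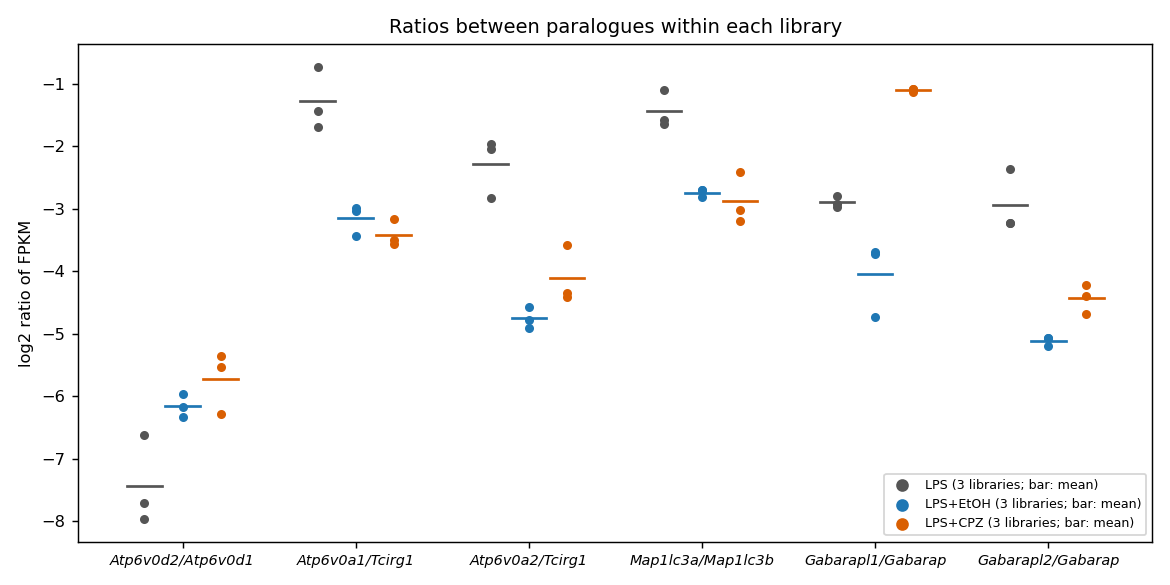
Log2 ratio of the FPKM of paralogous genes within each of the 9 libraries; points are libraries and bars are group means. The Gabarapl1 to Gabarap ratio is highest in LPS+CPZ (mean -1.09) and lowest in LPS+EtOH (-4.04), and the ratios of Atp6v0a1 and Atp6v0a2 to Tcirg1 are highest in LPS.

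Genes of the wider pathway were described by list, beside the 19% of all tested genes that rose and 64.6% that fell with ethanol and the 20.7 and 48.4% with CPZ; no difference between a list and these shares was tested. Of the 18 other pump subunit and assembly genes 11 were tested: 3 rose and 8 fell with ethanol, and 4 rose and 3 fell with CPZ. Dmxl2, a rabconnectin that helps V1 rejoin V0, rose from 4.92 ± 0.888 FPKM in LPS to 18.3 ± 1.87 with ethanol and 9.74 ± 2.31 with CPZ, while its paralogue Dmxl1 fell from 5.47 ± 0.437 to 0.486 ± 0.0880 and 2.18 ± 0.181. Ncoa7, a TLDc protein that binds the pump, fell with ethanol (-1.47 ± 0.12, adjusted p = 7.1e-07), and its value with CPZ was -0.16 ± 0.12, adjusted p = 0.254. The assembly factor gene Ccdc115 fell from 5.16 ± 1.03 FPKM to 1.42 ± 0.116 with ethanol and 2.08 ± 0.282 with CPZ. Oxr1, another TLDc gene, was higher with CPZ than with ethanol (5.24 ± 0.645 against 1.47 ± 0.271 FPKM, with 4.41 ± 0.102 in LPS). After median-ratio scaling 4 of the 11 were higher and 5 lower with ethanol, and 5 and 3 with CPZ.

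Of 15 other initiation and membrane genes, 3 rose and 10 fell with ethanol, and 7 rose and 2 fell with CPZ (7 and 4, and 10 and 2, after median-ratio scaling). Rubcn encodes Rubicon, an inhibitor of the lipid kinase complex that also serves LC3-associated phagocytosis, and fell from 6.11 ± 1.21 FPKM to 0.513 ± 0.111 with ethanol and 2.22 ± 0.292 with CPZ. Pik3r4, the regulatory subunit of Vps34, fell from 3.98 ± 0.552 FPKM to 0.515 ± 0.152 with ethanol and 1.49 ± 0.254 with CPZ. Atg101, a ULK complex gene, rose to 30.9 ± 1.47 and 29.2 ± 1.55 from 11.9 ± 1.34 FPKM. Tmem41b, a membrane scramblase, rose from 3.42 ± 0.116 FPKM to 6.93 ± 0.465 with ethanol and 6.55 ± 0.519 with CPZ. Wipi2 was higher with CPZ than with ethanol (9.81 ± 0.409 against 3.01 ± 0.499 FPKM, with 6.65 ± 0.245 in LPS). The lipid transfer gene Atg2a was at 10.95 ± 0.785, 6.85 ± 0.879 and 34.4 ± 3.01 FPKM, with a difference between CPZ and ethanol of 2.18 ± 0.12, adjusted p = 4.26e-07, and its paralogue Atg2b fell with ethanol (-1.68 ± 0.12, adjusted p = 3.27e-07), with a CPZ value of -0.22 ± 0.12, adjusted p = 0.114.

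Of 19 other conjugation and receptor symbols 1 was not in the table and 17 were tested, with 5 higher and 9 lower with ethanol and 11 higher and 4 lower with CPZ (10 and 4, and 12 and 1, after median-ratio scaling). Bnip3, a mitochondrial receptor of autophagy and a known hypoxia target, had means of 1.78 ± 0.498 FPKM in LPS, 2.47 ± 0.785 with ethanol and 108 ± 13.1 with CPZ. The first 2 groups overlapped and the CPZ libraries lay far above, with a log2 change of 5.29 ± 0.19, adjusted p = 5.82e-08. Wdfy3, which encodes the aggregate adaptor ALFY, rose from 6.03 ± 0.977 FPKM to 21.6 ± 2.87 and 32.3 ± 4.72. Tollip rose from 24.3 ± 1.34 FPKM to 50.96 ± 2.14 with ethanol and 38.8 ± 1.32 with CPZ. Calcoco1 fell with ethanol (-1.50 ± 0.12, adjusted p = 9.08e-07), rose with CPZ (0.41 ± 0.12, adjusted p = 0.0117) and was higher with CPZ than with ethanol (1.92 ± 0.12, adjusted p = 8.11e-07). Its call for CPZ against LPS was not followed under other scalings. The protease gene Atg4a fell with ethanol (-1.56) and CPZ (-0.53), the second lost under median-ratio scaling (-0.24, adjusted p = 0.151). As deposited, Atg16l2 fell with ethanol (-0.41) and CPZ (-0.81). The ethanol value of Atg16l2 was not followed under other scalings. It was a smaller fall than the median change of all tested genes with ethanol (-0.82), so its direction may depend on scaling.

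Fusion genes join the finished autophagosome to the lysosome, and of these 14 genes 4 rose and 7 fell with ethanol and 5 rose and 4 fell with CPZ (8 and 4, and 9 and 4, after median-ratio scaling). Tecpr1, a tether at the lysosome, rose from 5.25 ± 0.138 FPKM to 14.3 ± 1.58 and 28.4 ± 2.73. Plekhm1, an adaptor between Rab7 and the HOPS tether, rose from 10.1 ± 0.677 FPKM to 23.3 ± 2.61 with ethanol and 43.9 ± 2.54 with CPZ, and the HOPS gene Vps18 rose from 6.38 ± 0.640 to 21.9 ± 3.64 and 19.4 ± 2.70. The tether gene Epg5 and the SNARE gene Snap29 fell in both comparisons, Epg5 from 4.69 ± 0.318 to 0.896 ± 0.0677 and 1.88 ± 0.248 and Snap29 from 24.4 ± 2.84 to 8.05 ± 0.323 and 12.7 ± 0.439 FPKM. Vps33a and Vps41, also of HOPS, were higher with CPZ than with ethanol (1.26 and 1.10).

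Upstream, mTORC1 holds autophagy down when nutrients abound, and MiT/TFE factors switch on pump and autophagy genes when mTORC1 is inactive. Of 21 mTORC1 pathway genes 19 were tested: 7 rose and 12 fell with ethanol, and 6 rose and 6 fell with CPZ (11 and 5, and 8 and 4, after median-ratio scaling). Fnip2, part of the folliculin complex that acts on the Rag GTPases, stood at 12.8, 15.5 and 9.05 FPKM in LPS, 116, 106 and 107 with ethanol and 218, 194 and 163 with CPZ, without overlap. Its log2 changes were 3.07 ± 0.18, adjusted p = 1.26e-07 and 3.86 ± 0.18, adjusted p = 1.07e-07. The Rag GTPase gene Rragc rose from 25.04 ± 0.392 to 64.1 ± 7.49 and 77.8 ± 5.56 FPKM. Mtor, which encodes the kinase, fell with ethanol (-1.77 ± 0.12, adjusted p = 3.12e-07) and CPZ (-0.998 ± 0.12, adjusted p = 4.64e-05). Rptor, which encodes its partner Raptor, fell with ethanol (-1.67 ± 0.10, adjusted p = 1.12e-07) and CPZ (-0.53 ± 0.10, adjusted p = 0.000598), and Tsc2, a brake on mTORC1, fell with ethanol (-1.50) and CPZ (-0.59).

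Tfeb stood at 4.28, 5.59 and 4.31 FPKM in LPS, 18.98, 16.8 and 18.8 with ethanol and 14.6, 13.7 and 14.4 with CPZ, lowest in LPS without overlap. It rose by 1.75 ± 0.12, adjusted p = 2.74e-07 with ethanol and 1.42 ± 0.12, adjusted p = 3.52e-06 with CPZ. Between CPZ and ethanol it differed by -0.33 ± 0.12, adjusted p = 0.0255, a call lost as TPM (adjusted p = 0.139) and without globin genes (0.0648). Tfe3 stood at 18.6, 15.8 and 16.7 FPKM in LPS, 39.7, 38.7 and 41.1 with ethanol and 18.1, 15.8 and 16.6 with CPZ. Only the ethanol libraries stood apart: Tfe3 rose by 1.18 ± 0.11, adjusted p = 1.85e-06, and its value with CPZ was -0.015 ± 0.11, adjusted p = 0.906, turning to 0.32 under median-ratio scaling. Against ethanol, Tfe3 was lower with CPZ by -1.20 ± 0.11, adjusted p = 5.27e-06. Mitf stood at 10.1, 6.27 and 6.52 FPKM in LPS, 8.002, 7.20 and 9.68 with ethanol and 12.6, 10.03 and 10.5 with CPZ. The LPS libraries overlapped with each of the other groups. It was called higher with CPZ (0.50 ± 0.18, adjusted p = 0.0267), a call lost as TPM (adjusted p = 0.0737), without globin genes (0.44) and without a filter on low values (0.074). Its ethanol value of 0.13 was not called as deposited, but was 1.18 under median-ratio scaling (adjusted p = 0.000252). Tfec stood at 1.37, 1.04 and 0.984 FPKM in LPS, 1.15, 1.21 and 1.11 with ethanol and 1.46, 0.897 and 1.06 with CPZ, and no change was called as deposited. Under median-ratio scaling Tfec was higher with ethanol than in LPS by 0.67 (adjusted p = 0.000823) and differed between CPZ and ethanol by -0.49 (adjusted p = 0.00689).

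**Figure D5:**
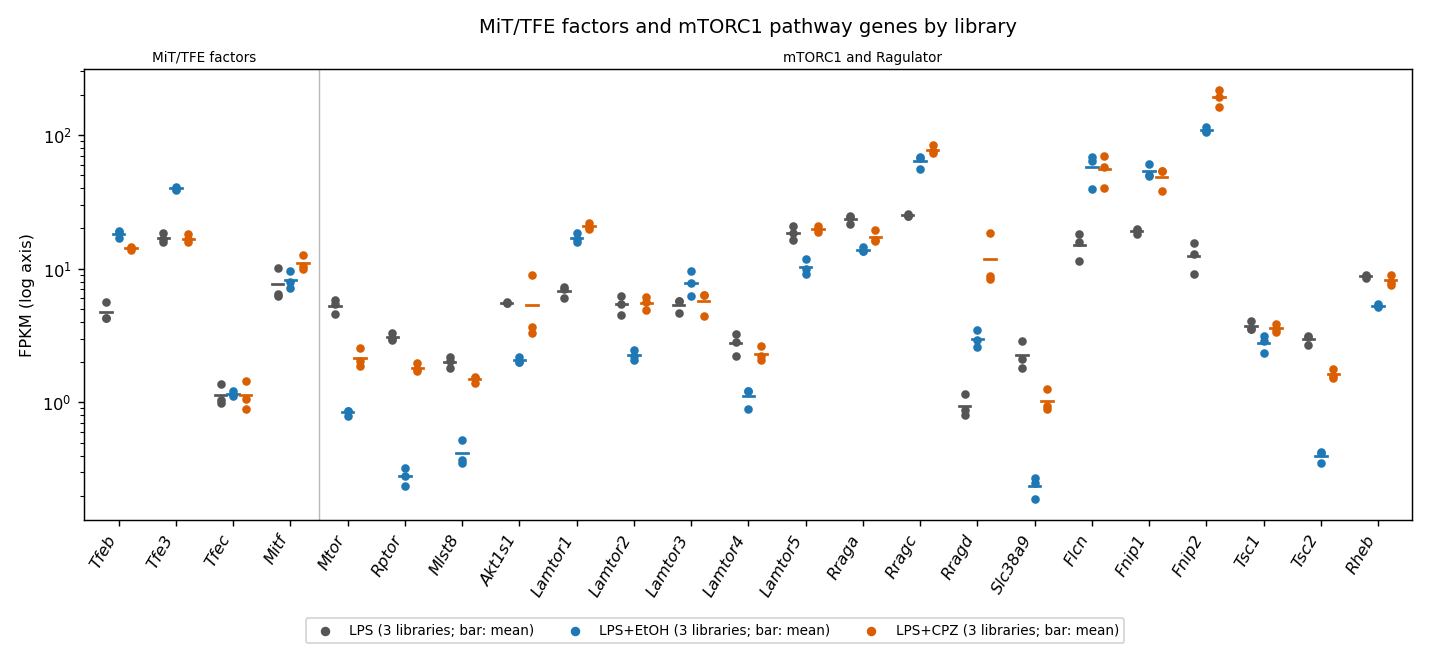
Levels of the 4 MiT/TFE genes and of 19 mTORC1 pathway genes in FPKM (log axis) in each of the 9 libraries; points are libraries and bars are group means. Tfeb, Rragc and Fnip2 are lowest in LPS, while Rptor, Mtor and Tsc2 are lowest in LPS+EtOH.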

How the data were processed

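RNA of 9 libraries, each a pool of 3 samples, was sequenced strand-specifically on an Illumina instrument, per the labels' protocols. The authors deposited FPKM values per gene. Tools listed in the submitters' processing notes were STAR, StringTie and, for quality control, FastQC 0.11.2, with hg38 as build, although the gene IDs are of mouse (55154 of 55335 are in GENCODE M21), so no coordinates were taken from them. Values were analysed as log2(FPKM + 1) with limma 3.58.1 (R 4.3.3, linear model, empirical Bayes with trend) over all 9 libraries and 3 groups, with 6 residual degrees of freedom, on genes at 1 FPKM or more in at least 3 libraries. Tests were two-sided with Benjamini-Hochberg adjustment over all tested genes and a threshold of 0.05. FPKM keeps each library's composition, so a few abundant transcripts can shift all other values. Low values did not resolve into whole reads (32.8 to 34.3% were whole within 2%), so no count test was run. The procedure was also run on simulated data, with as many genes raised as lowered and no shift of composition built in. That run does not bear on the choice of scaling.

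The genes and lists were chosen with earlier results of these data known. Values in every library are given for the genes of each role group with the largest (2) and smallest (1) absolute mean change against LPS and for a set of named genes; of other lists, up to 2 genes per direction with the smallest adjusted p. Alternatives were other pseudocounts, filters, scalings (TPM, median-ratio, quantile, globin genes left out), model settings, a replicate block and each library left out. Overlapping genes and paralogues may share fragments. Besides the overlaps given above, Atp6v0a2, Atp6v0b, Atp6v1h, Becn1, Map1lc3b, Optn, Sqstm1 and Uvrag overlap genes on the opposite strand. The highest group mean among those genes was 1.09 FPKM, for Zcchc14 (over Map1lc3b) in LPS. Of the macrophage markers, 1 is not reported here and was left out of that list.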

Additional observations from a re-analysis of the deposited data

How the results depend on the processing

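With a log2 change of at least 1 required, 4 genes were lower in LPS+EtOH against LPS and 1 in LPS+CPZ against LPS, and 8 were higher and 2 lower in LPS+CPZ against LPS+EtOH. Of all 11721 tested genes, 5088 and 2013 were then lower in the comparisons against LPS. Between CPZ and ethanol 2816 of all tested genes were then higher and 849 lower. In the comparisons against LPS, 8 and 6 genes were lower as deposited, 2 and 3 under median-ratio scaling and 2 and 2 under quantile scaling. Of all 11721 tested genes, 7566 and 5674 were lower as deposited, 4705 and 3806 under median-ratio scaling and 4633 and 4069 under quantile scaling. A filter of 5 FPKM gave 5 and 3 lower genes, against 3770 and 3096 of 6419 tested. It left Atp6v0a2, Atp6v0d2, Uvrag, Wipi1 and Atg16l1 untested and changed no call of the other genes of the set. Median-ratio scaling gave 7 higher and 18 lower genes in LPS+CPZ against LPS+EtOH, where 17 and 10 were called as deposited. The shares of all tested genes were 33.9 and 33% under median-ratio scaling and 61.4 and 15.2% as deposited. Without single libraries the counts of higher and lower genes were 22 to 22 and 8 to 8 in LPS+EtOH against LPS, 26 to 27 and 4 to 6 for CPZ against LPS, and 16 to 18 and 9 to 10 between CPZ and ethanol. Over all 11721 tested genes these counts were 2084 to 2215 and 7350 to 7486 in LPS+EtOH against LPS. They were 2269 to 2309 and 5163 to 5695 for CPZ against LPS, and 6638 to 7060 and 1621 to 1786 between CPZ and ethanol. Pairing was left out of the model because equal replicate numbers did not all correlate above 0.1 (correlations of deviations -0.0065 to 0.26 for equal numbers and -0.20 to 0.13 for unequal ones, and LPS 3 correlated best with LPS+CPZ 2, at 0.13). Among equal numbers only LPS 1 with LPS+EtOH 1 fell below 0 (-0.0065), while unequal numbers lay on both sides of 0. These correlations cannot decide whether libraries were paired. In the sample titles, ethanol and CPZ libraries of equal number share a prefix (S1, S2 or S3), whose meaning is not given. With the replicate block 22 genes were higher and 8 lower in LPS+EtOH against LPS, 27 and 6 for CPZ against LPS, and 18 and 10 between CPZ and ethanol, where Atp6v0d2 gained a call (adjusted p = 0.0453), as did Mitf (0.0491). Over all tested genes the block gave 2264 higher and 7607 lower, 2459 and 5697, and 7255 and 1831, in the same order of comparisons. In LPS+EtOH against LPS, the direction turned under median-ratio scaling for Atp6v0a1 (0.29), Gabarapl2 (1.06), Becn1 (0.74), Wipi1 (0.42), Atg5 (0.11), Atg12 (0.95) and Atg16l1 (0.10). It turned under quantile scaling for Atp6v0a1 (0.082), Gabarapl2 (0.44), Becn1 (0.19), Wipi1 (0.63), Atg12 (0.75) and Atg16l1 (0.24). It turned as TPM for Atp6v1h (-0.037), Atp6ap1 (-0.10) and Tfec (-0.054). It turned with globin genes left out for Atp6v1h (-0.31), Atp6ap1 (-0.39), Nbr1 (-0.20), Map1lc3a (-0.082), Tfec (-0.21) and Mitf (-0.25). In LPS+CPZ against LPS, the direction turned with globin genes left out for Atp6ap2 (-0.044), Map1lc3a (-0.25), Gabarapl2 (-0.26), Atg13 (-0.032) and Tfec (-0.21). It turned under median-ratio scaling for Atg9a (0.11), Becn1 (0.038) and Tfe3 (0.32). It turned under quantile scaling for Atg9a (0.15), Atg16l1 (0.022) and Tfe3 (0.22). It turned with a pseudocount of 0.1 for Tfec (-0.0044). It turned as TPM for Tfec (-0.050). In LPS+CPZ against LPS+EtOH, the direction turned under median-ratio scaling for Atp6v0a2 (-0.12), Atp6v0b (-0.73), Atp6v0d2 (-0.29), Atp6v1b2 (-0.29), Atp6ap1 (-0.21), Gabarapl2 (-0.63), Ulk1 (-0.017), Becn1 (-0.70), Uvrag (-0.52), Atg3 (-0.046), Atg16l1 (-0.17), Tcirg1 (-0.80) and Mitf (-0.38). It turned under quantile scaling for Atp6v0a2 (-0.17), Atp6v0d1 (0.20), Atp6v0d2 (-0.31), Gabarapl2 (-0.10), Becn1 (-0.25), Uvrag (-0.53), Atg16l1 (-0.22), Tcirg1 (-0.044) and Mitf (-0.035). It turned as TPM for Atp6v0d1 (0.046) and Tfec (0.0041). It turned with globin genes left out for Atp6v0d1 (0.044) and Tfec (0.0066). Over the fits that each left out 1 library in LPS+EtOH against LPS, the sign turned for Atp6ap1 (-0.065 to 0.058), Gabarapl2 (-0.20 to 0.17), Tfec (-0.029 to 0.10) and Wipi1 (-0.32 to 0.035). Over the fits that each left out 1 library in LPS+CPZ against LPS+EtOH, the sign turned for Atp6v0d1 (-0.070 to 0.045), Tcirg1 (-0.043 to 0.077), Tfec (-0.12 to 0.061) and Uvrag (-0.0062 to 0.18). Over the fits that each left out 1 library in LPS+CPZ against LPS, the sign turned for Gabarapl2 (-0.051 to 0.32), Map1lc3a (-0.093 to 0.18), Tfe3 (-0.066 to 0.046) and Tfec (-0.10 to 0.082). The ratio of Map1lc3a to Map1lc3b differed between LPS+CPZ and LPS+EtOH by -0.37 to 0.020 without single libraries, and 1 FPKM added to Atp6v0d2 and Atp6v0d1 gave differences of -0.57 and -0.26 from LPS. For all these values the cause was not tested. The 3 libraries per group and genes near 1 FPKM, such as Atp6v0d2, limit the precision.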
